A study of Mus musculus with 8 samples.

Results

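The miRNAs described here, mmu-miR-1, mmu-miR-133a, mmu-miR-133b and mmu-miR-206, are known as muscle miRNAs. They were chosen by name, and all 4 are among the 611 mouse miRNAs on the array. The arrays came from female 5-week-old FVB/n mice carrying a β-actin–GFP reporter, whose mammary glands were microdissected under a fluorescence microscope. Every group carried this reporter and none received a treatment that the labels name. Stroma (3 arrays) was taken from distal regions of the fat pad, mature ducts (2 arrays) from the established part of the ductal tree, and TEBs (3 arrays) are the terminal end buds, the growing tips of the ducts in puberty. RNA was labelled with Cy3 and hybridised to Agilent arrays for mouse miRNAs, 1 sample to an array. The labels number the arrays of a tissue but do not say whether they came from separate mice, so p-values measure only the spread between these arrays, which may be technical.

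miR-1, miR-133a, miR-133b and miR-206 are made in large amounts by striated muscle, where the muscle transcription factors MyoD, myogenin, Mef2 and SRF switch their genes on. miR-1 and miR-206 favour differentiation of muscle cells, and miR-133a and miR-133b act on proliferation and on the actin cytoskeleton. miR-206 is largely limited to skeletal muscle, whereas miR-1 and the miR-133 pair are also made in the heart. In breast cancer cells miR-206 is known to repress the mRNA of oestrogen receptor alpha, the receptor through which oestrogen drives growth of the ducts in puberty. The genes lie in pairs. Mir206 and Mir133b are neighbours on mouse chromosome 1 inside the non-coding gene Lincmd1, and Mir1a-1 and Mir133a-2 are neighbours on chromosome 2 inside the non-coding gene Mir1a-1hg.

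The mature sequences of miR-206 (miR-206-3p) and miR-133b (miR-133b-3p) were in the RefSeq table used here, build GRCm38.p6. They are shown 5′ to 3′ because they represent the different seeds of the group, and the capitals mark the seed, bases 2 to 8, which pairs with target mRNAs. The miR-206 sequence lies at chr1:20679055-20679076 and the miR-133b sequence at chr1:20682834-20682855, both on the plus strand, in hairpins that are separated by 3686 bases. miR-1 and miR-133a are named only.
miR-206: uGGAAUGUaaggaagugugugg
miR-133b: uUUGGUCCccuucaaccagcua
miR-1 carries the same seed as miR-206, and miR-133a is near-identical to miR-133b over its whole length. An array probe for one member of such a pair might also bind the other, although a shared seed covers only bases 2 to 8. How far the probes kept them apart was not tested.

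The signal of a miRNA is the total intensity that the scanner software summed over its probes, with the background subtracted, so that a miRNA near the background can have a negative signal. The software also gave each signal an error and called it detected or not. Of the mouse miRNAs, 23.2% to 27.7% were detected on each array. The files give no counts, and the number of arrays limits the precision. Epithelial markers separated the stroma arrays from the duct and TEB arrays. They were not a check of ducts against TEBs, nor of how free these were of other cells. The summed scaled signal of 8 epithelial miRNAs (the miR-200 family, miR-205, miR-183 and miR-96) was 0 to 6.0 units on the stroma arrays, with none of the 8 detected there, and 2050 to 2391 units on the duct and TEB arrays, with all 8 detected. For comparisons each array was multiplied by a factor, 0.75 to 1.36, that equalised its 75th percentile over the 108 miRNAs with a detected signal on all 8 arrays. The log2 of the scaled signal was used, with 1 as the lowest value allowed.

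mmu-miR-1 was detected on 3 of the 8 arrays, all of them epithelial. Its unscaled signal was 100.1 units (software error 12.2) on duct replicate 2 and -1.5 units (error 10.5) on duct replicate 1. On the TEB arrays it was 0.35, 40.5 and 12.4 units for replicates 1, 2 and 3, with errors of 3.66, 6.30 and 5.38 units. On the stroma arrays it was -6.4, -13.3 and 2.2 units, none of them detected. The miRNA was therefore plain on duct replicate 2, where it ranked 75 of the 611 mouse miRNAs by signal, and at the background on the other duct array. It was well above its error on TEB replicate 2, weaker on TEB replicate 3 and at the background on TEB replicate 1, and the 3 tissues overlapped.

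**Figure D1:**
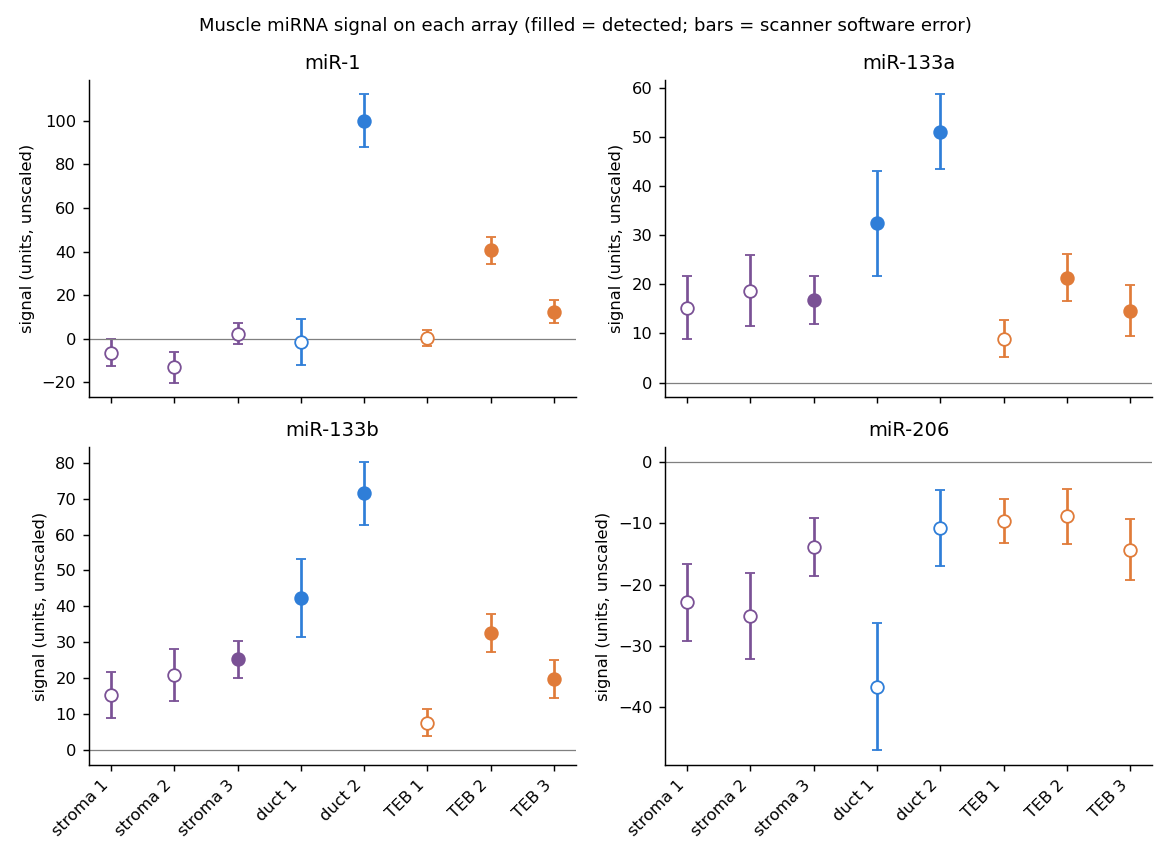
Unscaled signal of each muscle miRNA (y axis, intensity units) on each of the 8 arrays (x axis, tissue and replicate number). Points are the signals of single arrays, bars are the scanner software's error, and filled points were detected. miR-1 reached 100.1 units on duct replicate 2 and 40.5 units on TEB replicate 2, miR-133a and miR-133b were highest on the duct arrays, and every signal of miR-206 was below 0.

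mmu-miR-133a, which acts on the proliferation of muscle cells, was detected on 5 arrays. Its unscaled signal was 32.4 and 51.0 units on duct replicates 1 and 2, both detected. It was 9.0, 21.4 and 14.6 units on TEB replicates 1, 2 and 3, of which the last 2 were detected. On stroma replicates 1, 2 and 3 it was 15.2, 18.7 and 16.8 units, with only the last detected. Both duct arrays were above all other arrays, and the stroma arrays lay within the range of the TEB arrays. After scaling, stroma replicates 2 and 3, at 22.5 and 22.9 units, lay above all TEB arrays and just under duct replicate 1, at 24.3 units. The flag did not follow the signal alone. Stroma replicate 3 was detected at 16.8 units, 3.46 times its error, and stroma replicate 2 was not detected at 18.7 units, 2.61 times its error.

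mmu-miR-133b, the partner of miR-206 on chromosome 1, was detected on the same 5 arrays. Its unscaled signal was 42.3 and 71.5 units on duct replicates 1 and 2. It was 7.7, 32.7 and 19.8 units on TEB replicates 1, 2 and 3, and 15.3, 21.0 and 25.3 units on stroma replicates 1, 2 and 3. Duct replicate 2 was again the highest array and TEB replicate 1 the lowest. After scaling, the duct and stroma arrays overlapped, since stroma replicate 3 was at 34.4 units and duct replicate 1 at 31.7 units. By rank among the 611 mouse miRNAs on its own array, miR-133b ran from 84 on duct replicate 2 to 173 on TEB replicate 1.

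mmu-miR-206, the skeletal muscle member and the one known to act on oestrogen receptor alpha, was detected on no array. Its unscaled signal was -22.9, -25.1 and -13.9 units on stroma replicates 1, 2 and 3, -36.6 and -10.8 units on the duct arrays, and -9.6, -8.9 and -14.3 units on the TEB arrays. All 8 signals were below 0, so that no order of the tissues and no fold change can be given. On 7 of the arrays it ranked between 514 and 588 of the 611 miRNAs, and on duct replicate 2, the array with the strongest miR-1 signal, it ranked 409. miR-133a*, the other strand of the miR-133a hairpin, was also below 0 on all 8 arrays. Absence of signal on this array does not show absence of the miRNA. miR-145, which is transcribed together with miR-143, was likewise detected on no array, while miR-143 was detected on all 8.

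The duct arrays and the TEB arrays differed widely among themselves in miR-1. Among the 203 miRNAs detected on at least 1 array, the log2 scaled signal of miR-1 had the largest range between the duct arrays (6.33, against a median range of 0.23) and between the TEB arrays (5.26, against a median of 0.40). Between the stroma arrays its range was 1.57, rank 17 of 203. These ranges start from signals set to 1, so their size depends on that floor. When 16 was added to each scaled signal first, with sums under 1 set to 1, miR-1 ranked 3 of 203 for duct replicate 2 over duct replicate 1 (2.69) and 1 of 203 for the TEB range (1.73). miR-133b had ranges of 0.85 in ducts and 2.00 in TEBs (ranks 45 and 21 of 203), and miR-133a had ranges of 0.75 and 1.16 (ranks 52 and 39 of 203). In each tissue with detected miR-1 the array order was shared. Duct replicate 2 was above duct replicate 1, and TEB replicate 2 above replicate 3 above replicate 1, for miR-1, miR-133a and miR-133b alike. This order was not particular to them. miR-18a, miR-21 and the epithelial miR-183 and miR-96 had it too, and its share over the 203 miRNAs was not counted.

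**Figure D2:**
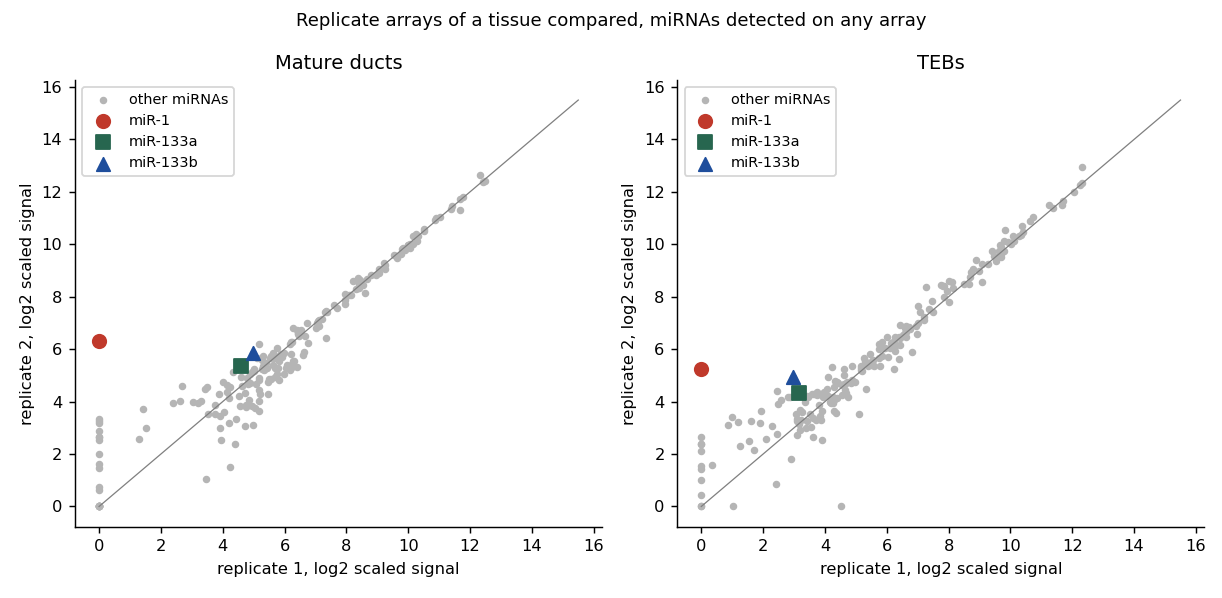
Log2 scaled signal on replicate 1 (x axis) against replicate 2 (y axis) of mature ducts (left) and TEBs (right), with a grey point for each of the 203 miRNAs detected on any array and the line of equal signal. miR-1 lies at 0 on replicate 1 and at 6.33 in ducts and 5.26 in TEBs on replicate 2, while miR-133a and miR-133b lie nearer to the line, above it.

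As ratios between the duct arrays and between the TEB arrays, summed marker miRNAs of other cell types differed less than the muscle miRNAs. In scaled units most of the sums given here differed more, since the muscle sums were far smaller. Much of the muscle difference in ducts came from miR-1, at -1.1 and 80.3 scaled units on replicates 1 and 2. Single markers could differ as much as miR-133a and miR-133b. The adipocyte miR-378 was 1.06 higher on duct replicate 2 than on replicate 1 on the log2 scale, against 0.85 for miR-133b and 0.75 for miR-133a. The summed scaled signal of the 4 muscle miRNAs, with negative signals taken as 0, was 56.1 units on duct replicate 1 and 178.6 units on duct replicate 2. Over the same arrays the red cell miRNAs miR-451 and miR-144 summed to 3276 and 2591 units, the 5 leukocyte miRNAs to 384 and 361 units and the 8 epithelial miRNAs to 2391 and 2160 units, all lower on replicate 2. The 7 adipocyte miRNAs, at 1535 and 1713 units, and the endothelial miR-126-3p, at 1927 and 2061 units, were slightly higher on replicate 2. On TEB replicates 1, 2 and 3 the muscle miRNAs summed to 17.1, 89.5 and 48.9 units. miR-126-3p, at 1315, 1650 and 1430 units, and the epithelial miRNAs, at 2050, 2190 and 2157 units, had the same order there, whereas the red cell miRNAs (1615, 1902 and 1370 units), the leukocyte miRNAs (296, 448 and 450 units) and the adipocyte miRNAs (1758, 1628 and 1640 units) did not. Among other miRNAs of striated muscle, miR-486, which red cells also make in large amounts, was at 44.2 and 26.9 scaled units on the duct arrays, and miR-208a, miR-208b and miR-499 were detected on no array. The liver miRNA miR-122 and the neuronal miRNAs miR-124 and miR-9 were also detected on no array. The part of any other cell type in these differences was not tested.

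The comparison of tissues asked whether the muscle miRNAs followed stroma, ducts or TEBs. Only miR-133a and miR-133b could be tested, because the fit covered the 167 miRNAs for which all arrays of some tissue gave a detected signal. They entered through the ducts alone, where they were highest. Their differences from ducts, and the p-values of these, may therefore be overstated by that choice. Neither passed an adjusted p of 0.05 in any comparison (limma, Benjamini-Hochberg adjustment over the 167 miRNAs). Over all 167 miRNAs, 64.7% passed between TEBs and stroma (20.4% higher in TEBs, 44.3% higher in stroma). For ducts against stroma 21.6% passed (9.58% higher in ducts, 12% higher in stroma), and for TEBs against ducts 24.6% (11.4% higher in TEBs, 13.2% higher in ducts). The split between TEBs and stroma depended on the scaling, with 38 miRNAs higher in TEBs and 28 in stroma when the percentile was taken over all mouse miRNAs. In a bulk sample, a tissue with fewer cells of a type and a tissue with less of the miRNA per cell cannot be told apart.

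Between TEBs and ducts, the mean log2 scaled signal of miR-133a was 3.82 ± 0.59 in TEBs (SD, n = 3) and, in ducts, 4.98 ± 0.53 (SD, n = 2). The difference of TEBs from ducts was -1.16 on the log2 scale (standard error 0.40, 95% interval -2.12 to -0.21, adjusted p = 0.066 from limma), or 2.24-fold. Both duct arrays lay above all 3 TEB arrays (exact permutation test, two-sided, p = 0.2, where 0.1 is the smallest p that 3 arrays against 2 allow). miR-133b was at 4.09 ± 1.03 in TEBs (SD, n = 3) and, in ducts, at 5.41 ± 0.60 (SD, n = 2). Its difference was -1.32 (standard error 0.64, 95% interval -2.86 to 0.22, adjusted p = 0.15 from limma). Again both duct arrays lay above all TEB arrays (exact permutation test, two-sided, p = 0.2). Other miRNAs separated in the same way, among them let-7b, let-7c and let-7d. The share over the 167 miRNAs was not counted, so the separation is not a trait of miR-133a and miR-133b. The call for miR-133a depended on single arrays and on the scaling. Its adjusted p was 0.0499 without TEB replicate 1 and 0.26 without duct replicate 2, and with no scaling between arrays miR-133a and miR-133b both passed (differences of -1.53 and -1.69, adjusted p = 0.019 and adjusted p = 0.049 from limma). The scaling moves all miRNAs together, since the median difference over the 167 miRNAs was -0.10 with scaling and -0.47 without. Relative to that median, the difference of miR-133a was -1.06 and that of miR-133b -1.22 under both. That they match follows from multiplying each array by 1 factor and is no test of the scaling. In the log2 table that the authors deposited, the values relative to the median were -0.46 and -0.70. The arrays lay in 2 rows of the slides, each with all 3 tissues. Within the rows the difference was -0.85 and -1.42 for miR-133a and -1.04 and -1.47 for miR-133b, and with the row in the model it was -1.09 and -1.20 (adjusted p = 0.087 and adjusted p = 0.165 from limma).

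Between ducts and stroma, where miR-133a averaged 4.32 ± 0.31 (SD, n = 3) and miR-133b 4.57 ± 0.57 (SD, n = 3) in stroma, the differences were smaller. The duct value of miR-133a exceeded the stroma value by 0.66 on the log2 scale (standard error 0.40, 95% interval -0.30 to 1.61, adjusted p = 0.29 from limma). Both duct arrays lay above the 3 stroma arrays (exact permutation test, two-sided, p = 0.1, the smallest possible). Other miRNAs, such as miR-322 and miR-199a-5p, separated in the same way, and their share over the 167 miRNAs was not counted. The duct value of miR-133b exceeded its stroma value by 0.84 (standard error 0.64, 95% interval -0.70 to 2.38, adjusted p = 0.43 from limma), with overlapping arrays. With no scaling, which shifted the median of the 167 miRNAs in this comparison from -0.09 to 0.50, the difference of miR-133a was 1.27 (adjusted p = 0.034 from limma). Relative to the median, which moves with the scaling too, it was 0.75 with scaling and 0.77 without. Within the slide rows the difference was 0.64 and 0.85 for miR-133a and 1.02 and 0.96 for miR-133b. Without duct replicate 2 the differences were 0.28 for miR-133a and 0.41 for miR-133b.

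Between TEBs and stroma, the difference of TEBs from stroma was -0.51 for miR-133a (standard error 0.35, 95% interval -1.36 to 0.35, adjusted p = 0.25 from limma) and -0.48 for miR-133b (standard error 0.57, 95% interval -1.86 to 0.89, adjusted p = 0.48 from limma). The arrays of these tissues overlapped for both miRNAs. TEB replicate 1, the array with the weakest signals, set the direction for miR-133b, whose difference was 0.12 without it. Within the slide rows it was -0.20 and -0.57 for miR-133a and -0.01 and -0.51 for miR-133b. The median difference over the 167 miRNAs was -0.28, and relative to it miR-133a was at -0.23 and miR-133b at -0.21. The order of the mean levels was thus ducts, stroma, TEBs for miR-133a and miR-133b, with no neighbours in that order distinguished by the fit.

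**Figure D3:**
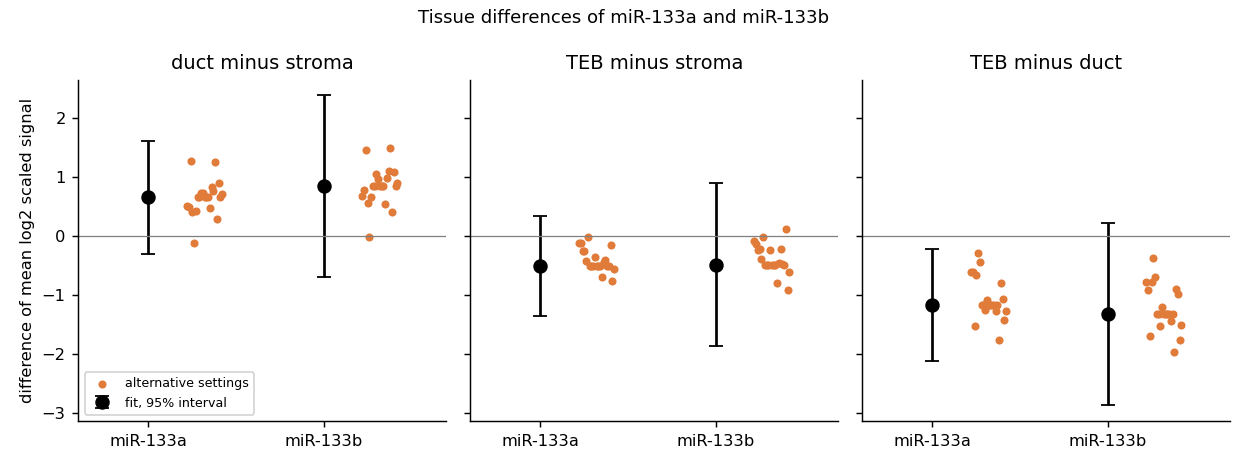
Difference of mean log2 scaled signal (y axis) of miR-133a and miR-133b in the 3 tissue comparisons. Black points are the limma estimates over all 8 arrays with 95% intervals, and orange points are the same differences under other processing settings and without single arrays. The intervals include 0 except for miR-133a in TEBs minus ducts (-2.12 to -0.21), which did not pass after adjustment.

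Since miR-1 was not detected on every array of any tissue, it had no place in the fit, and its tissue values are descriptions. Its mean log2 scaled signal, with the floor at 1, was 3.16 in ducts, 2.99 in TEBs and 0.52 in stroma, where no array detected it. It was detected on 1 of 2 duct arrays and 2 of 3 TEB arrays, and no fold change is given. With normexp background correction the differences from stroma were 0.29 on the log2 scale for ducts and -0.0023 for TEBs, against 2.64 and 2.46 without it. Normexp adds an offset of 50, which is above the miR-1 signal on every array but duct replicate 2. The same differences were 2.75 and 2.39 with 16 added, and 3.04 and 2.72 in the deposited log2 table. Duct replicate 2 alone set the level in ducts. The difference of ducts from stroma was 2.64 on the log2 scale with both duct arrays, 5.94 without duct replicate 1 and -0.51 without duct replicate 2, and within the slide rows it was 0 and 5.54. Stroma and the 5 epithelial arrays differed by -2.53 for miR-1 (exact permutation test, two-sided, p = 0.30), by 0.04 for miR-133a (exact permutation test, p = 0.91) and by -0.05 for miR-133b (exact permutation test, p = 0.96), where 0.018 is the smallest p that 5 arrays against 3 allow. When single arrays were left out, the difference ran from -0.37 to 0.31 for miR-133a and from -0.60 to 0.26 for miR-133b. For miR-1 the p of this comparison ran from 0.071 to 0.73 over all settings (exact permutation tests).

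Over the 8 arrays miR-133a and miR-133b moved together. Their log2 scaled signals had a Pearson r of 0.968 (exact permutation test, p = 0.00055, adjusted p = 0.0016 over 3 pairs) and a Spearman rho of 0.929 (exact permutation test, p = 0.0022, adjusted p = 0.0067). Without the 2 arrays farthest from the median of miR-133b, TEB replicate 1 and duct replicate 2, r was 0.859. The permutations moved arrays across tissues, so these p-values do not separate tissue differences from differences between arrays of a tissue. The correlations were also added after the values were seen. The arrays share the scaling, and the near-identity of the 2 miRNAs means that their probes need not be independent measures. miR-1 followed them less. Its r was 0.602 with miR-133b (exact permutation test, p = 0.11, adjusted p = 0.17) and 0.508 with miR-133a (exact permutation test, p = 0.21, adjusted p = 0.21). Its rho was 0.571 and 0.304 in the same order (exact permutation tests, p = 0.15 and p = 0.47, adjusted p = 0.22 and adjusted p = 0.47). Without the same 2 arrays r was 0.208 and -0.271, although leaving out the extremes of miR-133b lowers r in itself, and duct replicate 2 is among the 3 arrays that detected miR-1. Duct replicate 1 and stroma replicate 3 showed the separation, with 31.7 and 34.4 scaled units of miR-133b and -1.1 and 3.0 scaled units of miR-1. TEB replicate 2 had a similar 30.9 units of miR-133b with 38.3 units of miR-1. Each row of the slides held 4 arrays, too few for a correlation within a row.

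**Figure D4:**
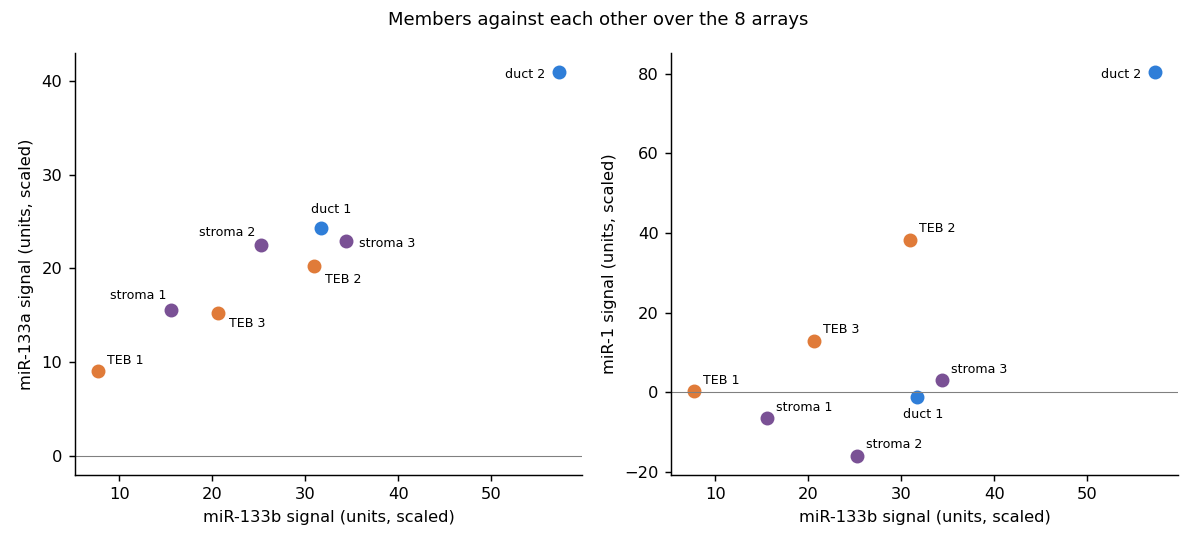
Scaled signal of miR-133a (left, y axis) and miR-1 (right, y axis) against that of miR-133b (x axis), in intensity units, with a labelled point for each of the 8 arrays coloured by tissue. miR-133a rises with miR-133b over all arrays, while miR-1 is at or below 3.0 units on 5 arrays whatever the miR-133b signal and reaches 80.3 units on duct replicate 2.

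Outside the group, the miRNAs whose log2 signals over the 8 arrays were most like miR-133a were miR-140 (r = 0.772), miR-299* (0.737) and miR-18a* (0.718). Those most like miR-133b were miR-18a* (0.685), miR-27b (0.675) and miR-199b* (0.673). These values describe 8 arrays that share their scaling and tissue structure, and none of them came near the r of 0.968 between miR-133a and miR-133b. Of the nearest 3 by rank correlation, 1 was shared for miR-133a, namely miR-140, and 0 for miR-133b.

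Of the other miRNAs linked to muscle, miR-486 and miR-143 were measurable in every tissue. In stroma miR-486 was at 39.1 ± 8.5 scaled units (SD, n = 3). Its mean was 35.5 ± 12.2 units over the duct arrays (SD, n = 2) and 20.2 ± 5.6 units over the TEB arrays (SD, n = 3). It was lower in TEBs than in stroma, by a difference of -0.96 on the log2 scale (standard error 0.30, adjusted p = 0.029 from limma), as were the red cell miRNAs miR-451 and miR-144, which also passed. miR-143, a miRNA of smooth muscle, had its highest mean in ducts, as miR-133a and miR-133b did, at 95.1 ± 7.9 scaled units (SD, n = 2). It was at 82.6 ± 12.6 units in stroma (SD, n = 3) and, in TEBs, at 62.2 ± 2.9 units (SD, n = 3). The difference of TEBs from ducts was -0.61 on the log2 scale for miR-143 (standard error 0.15, adjusted p = 0.027 from limma), and that of TEBs from stroma was -0.40 (standard error 0.13, adjusted p = 0.035 from limma).

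Of the 8 miRNAs listed as regulators of oestrogen receptor alpha, miR-206, miR-222, miR-18b and miR-302c were detected on no array and 4 were tested. Between TEBs and stroma 2 were higher in TEBs and 2 higher in stroma, where 64.7% of all 167 miRNAs passed. A list of 4 is too short to be set apart from such shares. miR-18a, of the miR-17-92 cluster, was at 77.7 ± 12.5 scaled units (SD, n = 3) in TEBs and was detected on no stroma array, where its signal was 0.70 ± 2.82 (SD, n = 3). miR-221 was detected on all TEB arrays, at 16.5 ± 3.66 scaled units (SD, n = 3), and on no stroma array, where its signal was 8.79 ± 1.18 (SD, n = 3). It entered the fit through TEBs alone, where it was highest, so its difference from stroma may be overstated by that choice. Its signals were also near the background. miR-22 was at 7002 ± 121 scaled units (SD, n = 3) in stroma against 4120 ± 166 (SD, n = 3) in TEBs, and miR-193b at 1048 ± 158 (SD, n = 3) against 455 ± 81 (SD, n = 3). Between ducts and stroma 1 was higher in ducts, 2 were higher in stroma and 1 did not pass, against 21.6% of all 167 miRNAs that passed. Between TEBs and ducts 1 of the 4, miR-18a, passed, higher in TEBs, which is near the 24.6% of all 167 miRNAs that passed. The median of the 4 between TEBs and stroma was 0.06 on the log2 scale, against -0.28 over all 167 miRNAs.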

How the data were processed

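miRNAs were measured in stroma (3 arrays), mature ducts (2) and TEBs (3), grouped by the tissue in their titles. The authors deposited the total signal intensity of each miRNA, its error and a detection flag, made with Agilent Feature Extraction 9.5.3 per the submitters' processing notes, with background subtracted and no normalization between arrays. They also deposited a log2 table of the same arrays. Its normalization is not given in the sources used here. Of its 672 sorted values 312 were identical on all arrays within 0.001, as after quantile normalization, and its order followed the scanner signal on each array. Its medians were 1.48, 0.14 and 1.48 for stroma replicates 1 to 3, 0.17 and 1.48 for ducts, and 1.48 on each TEB array, and what set its low values is unknown. It served as an alternative.

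Control features (22) and 39 viral and other non-mouse probes were left out. Arrays were scaled to the 75th percentile of the 108 mouse miRNAs detected on all arrays, because the percentile over all 611 lies at the edge of detection. Their log2, floored at a scaled signal of 1, was fitted in limma 3.58.1 (R 4.3.3; lmFit, contrasts.fit, eBayes) with all 8 arrays. The 167 miRNAs for which all arrays of some tissue gave a detected signal were tested, with Benjamini-Hochberg adjustment within each comparison and a threshold of 0.05. The paper names t tests in general and no normalization for these arrays. The procedure was tested on simulated arrays. Exact permutation tests enumerated all arrangements of the arrays. The members and lists were chosen with earlier results of these data known. Named were the 4 muscle miRNAs, star strands, other muscle miRNAs, miRNAs acting on oestrogen receptor alpha, cell type markers, and the 3 nearest in pattern to each member detected on at least 4 arrays. Slide rows were taken from the array positions in the deposited file names. The correlations among members were added after their values were seen. Alternatives were other scalings, adding 16 to the scaled signal before the floor, normexp (offset 50), other detection filters, a replicate block, slide row in the model, trended robust eBayes, a fit on the 2 tissues compared, the methods' t-test, the deposited log2 table and leaving out each array.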

Additional observations from a re-analysis of the deposited data

How the results depend on the processing

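Without scaling, TEBs minus ducts passed for miR-133a (-1.53) and miR-133b (-1.69), and ducts minus stroma for miR-133a (1.27). Normexp gave -0.42 and -0.39 for TEBs minus stroma, both past the threshold (adjusted p = 0.0056 and 0.026 from limma), and reversed ducts minus stroma to -0.12 and -0.0186. For miR-1 it gave -0.11 for stroma minus epithelium (exact permutation test, p = 0.73), against -2.53. Adding 16 gave -2.53 and the deposited log2 table -2.85 (exact permutation tests, p = 0.071 for each). With the replicate block, miR-133a passed for TEBs minus stroma (-0.51, adjusted p = 0.041 from limma) and TEBs minus ducts (-1.24, adjusted p = 0.028 from limma). The labels give only a number. Over the tested miRNAs, same-numbered arrays of different tissues did not deviate together (mean correlation -0.10 over 7 pairs, against 0.05 over 14 others), and this fit was not taken as a pairing. For miR-133a and miR-133b, however, replicate 1 was the lowest array in each tissue. So few arrays cannot decide whether the numbers mark a pairing. Stroma minus epithelium reversed for miR-133a to -0.13 (75th percentile of all miRNAs), -0.12 (quantile), -0.35 (no scaling), -0.0156 (plus 16) and -0.16 (deposited log2 table), and for miR-133b to 0.24 (normexp). miRNAs past the threshold between TEBs and stroma numbered 108 (34 higher in TEBs, 74 in stroma) and 66 with the 75th percentile of all miRNAs (38 and 28). Between ducts and stroma they numbered 36, against 19 with that percentile, 56 without scaling and 69 with normexp. Between TEBs and ducts they numbered 41, against 75 without scaling, 27 with normexp, 18 with no detection filter, 16 with the block and 12 with the methods' t-test after adjustment (53 before). The cause of these moves was not tested. Nearest patterns shared with the Spearman order numbered 1 of 3 for miR-133a and 0 of 3 for miR-133b. The filter on all 8 arrays leaves miR-133a and miR-133b untested. No alternative was computed for miR-206.

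Leaving out each array gave 82 to 114 miRNAs between TEBs and stroma, 26 to 40 between ducts and stroma and 5 to 70 between TEBs and ducts (5 without TEB replicate 2, 10 without duct replicate 1, 70 without TEB replicate 1). For miR-133a the differences ran from -1.75 to -0.79 (TEBs minus ducts), 0.28 to 1.25 (ducts minus stroma), -0.77 to -0.16 (TEBs minus stroma) and -0.37 to 0.31 (stroma minus epithelium). For miR-133b they ran from -1.96 to -0.90, 0.41 to 1.48, -0.91 to 0.12 and -0.60 to 0.26, and for miR-1 from -3.32 to -1.71 for stroma minus epithelium. A lone duct array was assumed to vary like the other tissues.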
